A study of Mus musculus with 36 samples.

Results

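Bile acids that reach the end of the small intestine are recovered by a short chain of proteins, and 9 genes of that chain and of the signal it sends were followed through embryonic mouse intestines that lacked regulators of cell death. The genes were Slc10a2, Fabp6, Slc51a, Slc51b, Nr1h4, Fgf15, Nr0b2, Abcb11 and Abcc2, out of 52636 genes listed in each count table, of which 35778 had a read in at least 1 of 36 libraries. They were chosen by function from genes whose read counts were already known to vary between these genotypes, so the differences given for them describe these libraries and are no independent evidence of a direction. Comparison counts below are therefore set beside the share of all genes that met the same rule.

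Intestines came from embryos at E18.5, late in gestation, 3 embryos for each of 10 genotype groups, in sets named after their Casp8 allele. Casp8 encodes caspase-8, the initiator protease of death receptor apoptosis, Cflar encodes its partner and inhibitor cFLIP, and Mlkl encodes the effector of necroptosis. The D387A set held Mlkl-/- controls, Casp8 1xDA/1xDA embryos (a knock-in of D387A, a site of caspase-8 self-cleavage, with no Mlkl knockout in their labels), and Casp8 1xDA/1xDA Cflar-/- Mlkl-/- embryos alone or with added Casp1-/-, Casp1-/- Ifnar1-/- or Casp1-/- Fadd-/-. The C362A set held its own Mlkl-/- controls, Casp8 C362A/C362A Mlkl-/- (the catalytic cysteine replaced), the same with Casp1-/-, and Casp8 C362A/C362A Cflar-/- Mlkl-/-. Casp1 encodes the inflammatory caspase-1, Ifnar1 a chain of the type I interferon receptor and Fadd the adaptor that recruits caspase-8. Mouse embryonic fibroblasts (MEFs), 3 Mlkl-/- and 3 Casp8 1xDA/1xDA Cflar-/- Mlkl-/- cultures, made up the remaining 6 libraries. Every group except Casp8 1xDA/1xDA therefore carried Mlkl-/-, all alleles were present in every cell of the embryo rather than in the gut alone, and no wild-type intestine was analysed here. The design asked how intestinal gene expression changed with each allele and how much of that change was lost when Casp1, Ifnar1 or Fadd was removed as well.

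In the adult, bile acids are made in hepatocytes, secreted into the gut and taken back up by absorptive cells of the ileum. Slc10a2 (ASBT) carries them in from the lumen with sodium, Fabp6 is a cytosolic bile acid binding protein, and Slc51a and Slc51b encode OSTalpha and OSTbeta, which form a heterodimer that releases bile acids toward the portal blood. Bile acids inside the cell activate FXR, the nuclear receptor encoded by Nr1h4. Among the textbook targets of FXR are Fabp6, both Slc51 genes, Nr0b2 (the corepressor SHP) and Fgf15, a hormone that travels to the liver and lowers bile acid synthesis there. Abcb11 (BSEP) and Abcc2 (MRP2) are ATP-driven pumps best known from the bile canaliculus of the liver, and Abcc2 is also found at the apical side of enterocytes.

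The promoter windows of 8 of the 9 genes (250 bases before to 50 after the start of the RefSeq transcript, GRCm38.p6) were read from RefSeq, and the 3 shown here are those in which a motif tied to this pathway was matched most closely or more than once. Each is written 5' to 3' on the strand of the gene, in lower case with the matches in capitals. The first motif was IR-1, the inverted repeat bound by FXR with its partner RXR, searched as AGGTCA, any 1 base, then TGACCT. The other was the palindrome bound by HNF1, a factor of liver and gut epithelium, searched as GTTAAT, any 1 base, then ATTAAC. Both read the same on either strand, and up to 2 mismatches were allowed. The windows lie on the minus strand at chr11:43601513-43601812 (Fabp6), chr2:69342567-69342866 (Abcb11) and chr8:5105238-5105537 (Slc10a2).
Fabp6: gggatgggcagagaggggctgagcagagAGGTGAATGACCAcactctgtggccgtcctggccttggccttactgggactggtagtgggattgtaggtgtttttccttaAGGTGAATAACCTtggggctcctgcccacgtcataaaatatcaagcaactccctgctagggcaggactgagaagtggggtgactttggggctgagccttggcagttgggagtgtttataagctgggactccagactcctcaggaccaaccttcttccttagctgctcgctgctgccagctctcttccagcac
Abcb11: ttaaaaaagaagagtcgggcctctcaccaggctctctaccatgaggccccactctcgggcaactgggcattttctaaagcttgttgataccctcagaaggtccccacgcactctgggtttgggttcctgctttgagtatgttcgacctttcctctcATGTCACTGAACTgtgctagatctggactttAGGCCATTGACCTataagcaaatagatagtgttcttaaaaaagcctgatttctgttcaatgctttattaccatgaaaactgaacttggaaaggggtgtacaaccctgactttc
Slc10a2: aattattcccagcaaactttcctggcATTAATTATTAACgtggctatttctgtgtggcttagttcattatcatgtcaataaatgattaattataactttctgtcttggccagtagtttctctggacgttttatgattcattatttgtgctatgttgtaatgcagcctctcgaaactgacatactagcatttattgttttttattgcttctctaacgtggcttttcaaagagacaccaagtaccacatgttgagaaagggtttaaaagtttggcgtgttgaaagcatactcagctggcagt

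Fabp6 held an IR-1 match with 2 mismatches at -222 to -210 and another at -142 to -130 from the gene start, and Abcb11 held them at -94 to -82 with 2 mismatches and at -63 to -51 with 1. Slc10a2 held an HNF1 match with 1 mismatch at -224 to -212. Single HNF1 matches with 2 mismatches lay in Nr1h4 and in Abcc2, and none of these letters was found in the windows of Slc51a, Slc51b and Nr0b2. Of 32851 mouse promoter windows of this length, 1.14% held an IR-1 match and 0.0822% one with at most 1 mismatch, against 1.36% and 0.207% for the HNF1 palindrome. The matches are positions of letters and were not measured as binding.

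Reads counted on genes ranged from 17943524 to 27721024 per library in the D387A set, from 21757868 to 31052238 in the C362A set and from 20927014 to 32307629 in the MEFs. Casp1 was at 0 to 0.212 CPM (counts scaled to library size) in the 9 Casp1-/- libraries of the D387A set against 42.6 to 87.9 in the others, and Fadd was at 0.659 to 1.01 in Fadd-/- against 36.3 to 50.5. Ifnar1 was at 33.2 to 37.9 CPM in Ifnar1-/- against 76.1 to 93.6. Reads on Cflar were lower in deficient than in other libraries of the C362A set (39.7 to 44.4 against 53.3 to 72.5 CPM) and of the MEFs (55.9 to 60.3 against 84.9 to 92.5), with no overlap, and overlapped in the D387A set (33.8 to 59.4 against 43.9 to 53). The study's methods give deletions that remove only a stretch inside Cflar and inside Mlkl, and reads were not split at their bounds. The Cflar deletion was made separately, with different bounds, in the D387A and the C362A line, and cannot be told apart from the set. The epithelial list (Epcam, Cdh1, keratins and others, 8 genes) was expressed in every intestine, with a summed level of 4236 to 4794 CPM in the D387A-set controls. The number that opens the library titles was shared by the D387A-set controls and Casp8 1xDA/1xDA Cflar-/- Mlkl-/- but was different for each other genotype of that set, and what it marks, if it is a batch, cannot be told apart from genotype there.

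Among the Casp8 1xDA/1xDA Cflar-/- Mlkl-/- embryos with added Casp1-/-, the third stood apart from the other two. In it 3.81% of genes were over 2-fold from the mean of its group mates, against 1.09% and 1.23% for those mates and at most 2.82% in any other intestine. It also differed in erythroid markers, summed at 1454, 732 and 248 CPM in the 3 embryos, in macrophage markers (290, 286 and 513) and in Nos2 (8.17, 7.21 and 37.1 RPKM). The epithelial genes Epcam (472, 521 and 687 RPKM) and Vil1 (222, 281 and 350) were highest in it too. Mlkl, a gene of the group's own label, was at 3.13, 3.72 and 23 RPKM, against 22.9 to 27.9 with Casp1-/- Ifnar1-/-, 27.6 to 31.2 with Casp1-/- Fadd-/- and 2.39 to 2.67 in the controls. On Mlkl reads the third embryo was thus nearer to those 2 other Casp1-/- groups than to its own mates. Differences of this group for which leaving the embryo out changed a call or a direction are given with and without it. The part of these differences in the bile acid genes was not tested.

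Levels below are RPKM (reads scaled to gene length and library size), computed from the deposited counts on library sizes scaled within each set, so a level may be compared between genes but only within a set. In the 3 Mlkl-/- controls of the D387A set, Slc51a stood highest at 225 RPKM. Slc51b at 94.1, Nr1h4 at 92.3, Fabp6 at 74.5 and Abcc2 at 63.3 RPKM followed, with overlapping ranges between Slc51b and Nr1h4 and between Fabp6 and Abcc2. Abcb11 averaged 23 RPKM, Nr0b2 9.39 and Fgf15 8.49 (these last overlapping), and Slc10a2 was lowest at 1.51. Transcripts of the exporter subunits and of the receptor were thus abundant at E18.5, while those of the uptake transporter were at a low level. Protein was not measured, and the Slc51a and Slc51b levels carry the limit of strand given with the exporter below.

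**Figure D1:**
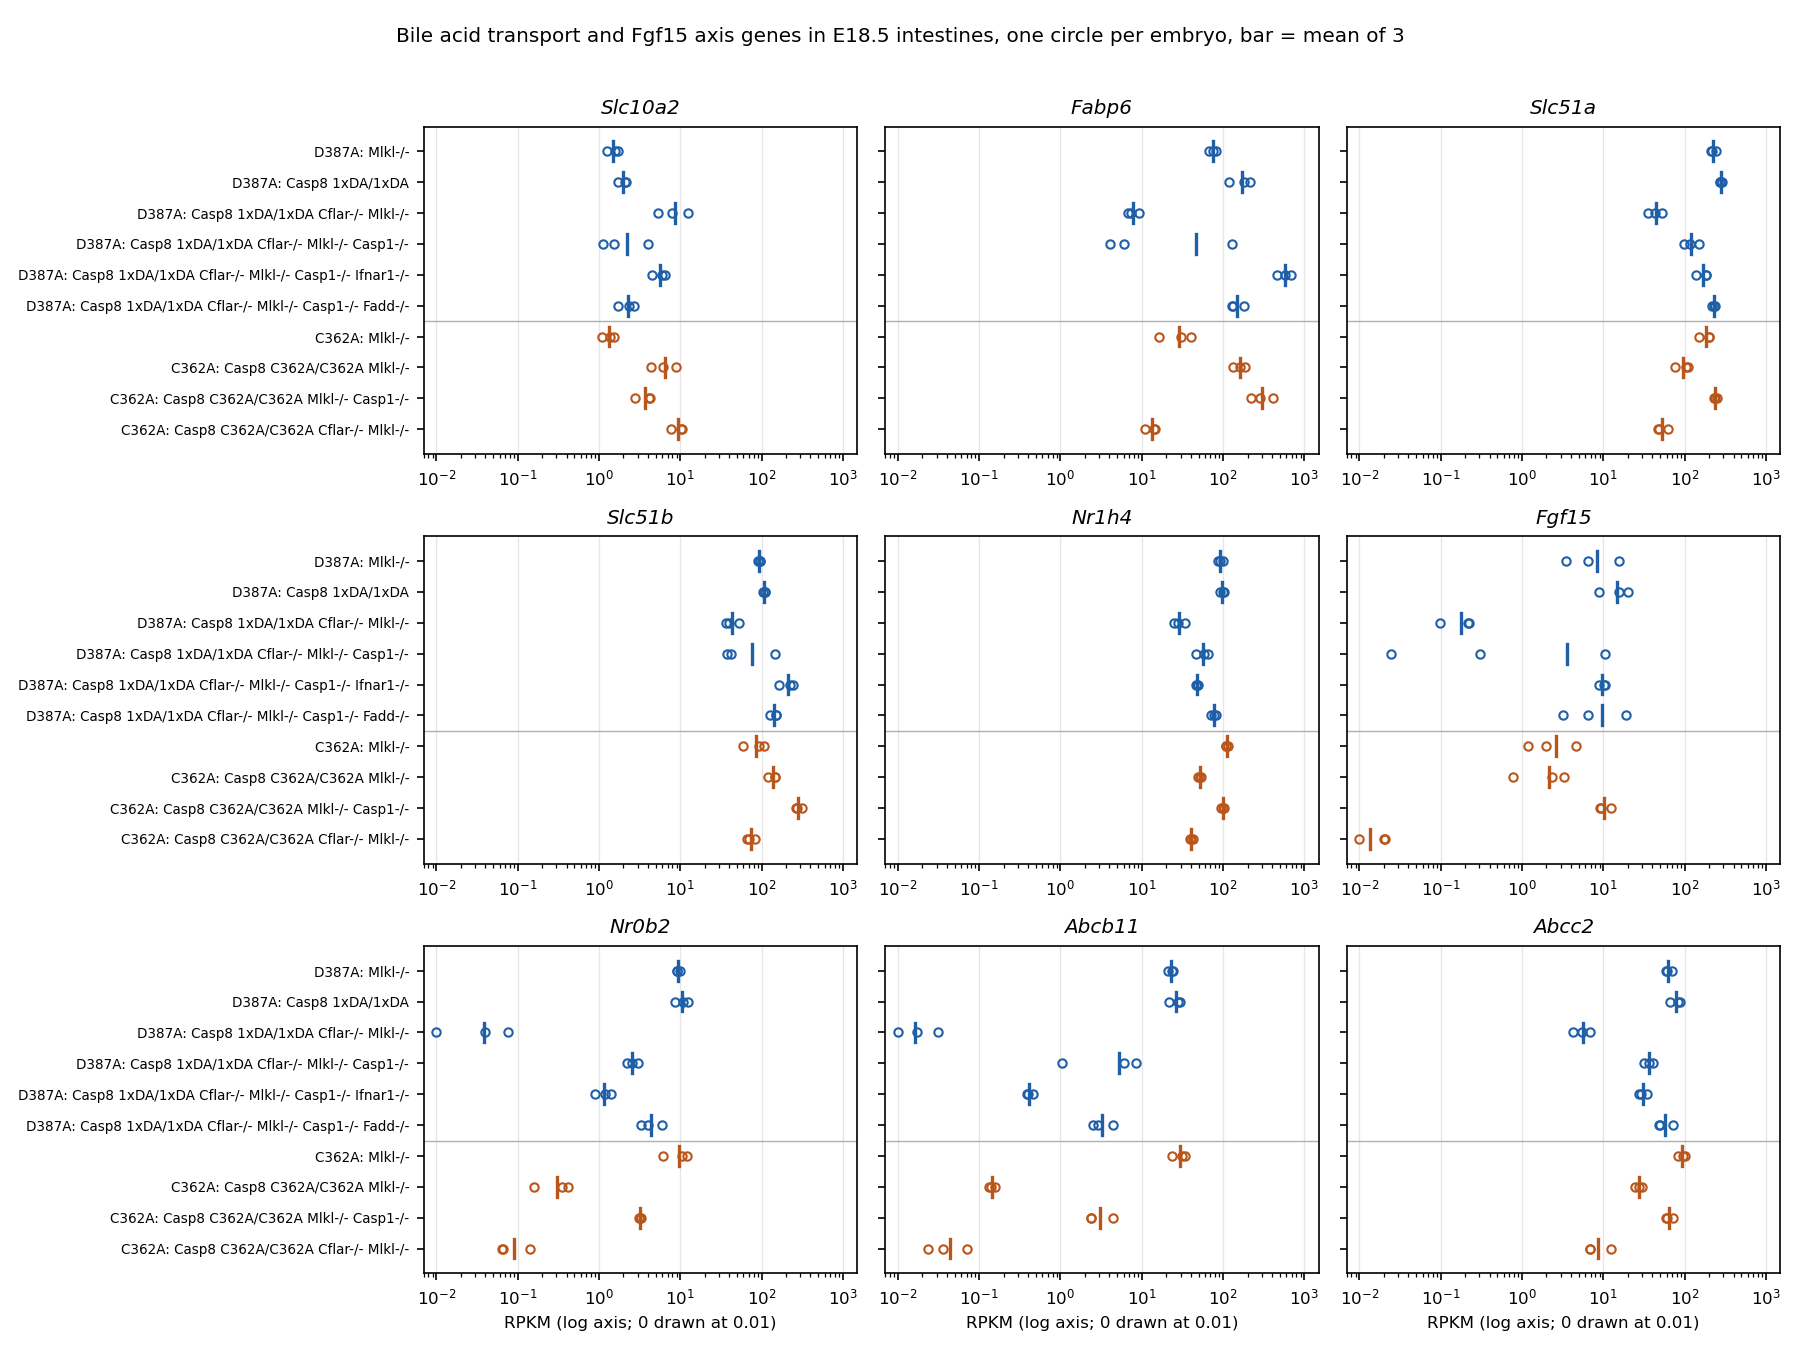
Level of each of the 9 genes (RPKM, log axis) in every intestine library by genotype, 1 circle per embryo and a bar at the mean of 3, with a level of 0 drawn at 0.01. Abcb11 fell furthest in both Cflar-/- Mlkl-/- compound mutants with Casp1 intact, and Slc10a2 was the gene that stood above its controls there.

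A gene was called when the quasi-likelihood test of edgeR, adjusted over all genes by the Benjamini-Hochberg method, gave an adjusted p under 0.05 and the log2 fold change was beyond 1 in either direction. Against Mlkl-/- controls, 0 of 9 genes were called in Casp8 1xDA/1xDA, where 0.00545% of all 18360 tested genes were, although all 9 estimates lay above 0 and 1 had an unadjusted p under 0.05. All 9 were called in Casp8 1xDA/1xDA Cflar-/- Mlkl-/-, 8 lower and 1 higher, against 22.2% of all genes (12.8% lower and 9.4% higher). The median log2 fold change of the 9 was -3.24, and that of all genes was -0.01. With Casp1-/- added, 2 were called, both lower (all genes 4.34%), and without the third embryo of that group 6 were, all lower. With Casp1-/- Ifnar1-/- added, 6 were called, 3 in each direction (12.4%, of which 6.76% higher and 5.64% lower). With Casp1-/- Fadd-/- added, 2 were called, both lower (3.78%).

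Among the C362A-set mutants, Casp8 C362A/C362A Mlkl-/- had 6 of 9 genes called, 2 higher and 4 lower, where 18% of all 19408 tested genes were (10.4% higher and 7.55% lower). In Casp8 C362A/C362A Cflar-/- Mlkl-/-, 8 were called, 1 higher and 7 lower (24.6%, with 13.4% higher and 11.2% lower). In Casp8 C362A/C362A Mlkl-/- Casp1-/-, 6 were called, 4 higher and 2 lower (10.5%, with 6.79% higher and 3.73% lower). Comparisons within a set share their Mlkl-/- embryos and are not independent of each other. The genes moved in mixed directions in both C362A-set mutant groups with Cflar intact, as they did in the D387A-set group with Casp1-/- Ifnar1-/-. They moved mostly downward where Cflar was missing with Casp1 intact.

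**Figure D2:**
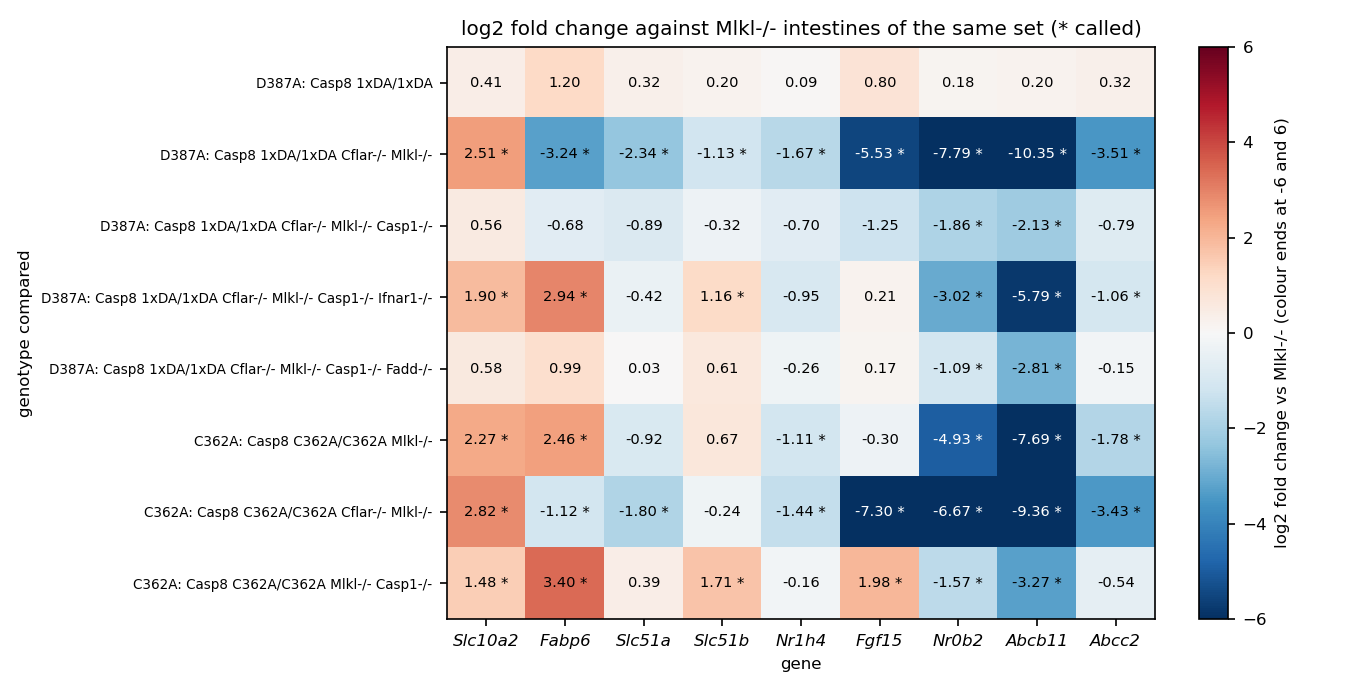
Log2 fold change of each gene (columns) against the Mlkl-/- controls of its own set, for each mutant genotype (rows), printed in each cell and coloured red for higher and blue for lower, with an asterisk where called. The lowest are those of Abcb11 at -10.35 and -9.36 in the 2 Cflar-/- Mlkl-/- compound mutants.

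Slc10a2, the uptake transporter, was called higher than controls in 5 of 8 mutant groups. Its level was 1.7, 1.56 and 1.26 RPKM in the 3 D387A-set controls and 12.6, 7.95 and 5.26 in Casp8 1xDA/1xDA Cflar-/- Mlkl-/-. Every mutant value lay above every control, a log2 fold change of 2.51 ± 0.38 (SE). In Casp8 1xDA/1xDA alone it was 1.7, 2.1 and 2.17 RPKM. With Casp1-/- the values were 1.54, 1.11 and 4.04, so that only the third embryo stood above the controls, and the log2 fold change was 0.56 with it and -0.18 without it. With Casp1-/- Ifnar1-/- they were 4.5, 5.89 and 6.5 RPKM (log2 fold change 1.90 ± 0.377), clear of the controls, and with Casp1-/- Fadd-/- they were 2.69, 2.35 and 1.72 RPKM. The C362A-set controls held 1.09, 1.38 and 1.55 RPKM. Casp8 C362A/C362A Mlkl-/- held 4.38, 8.92 and 6.08, Casp8 C362A/C362A Mlkl-/- Casp1-/- 4.29, 4.11 and 2.8, and Casp8 C362A/C362A Cflar-/- Mlkl-/- 10.5, 10.2 and 7.72. All 3 mutant groups lay above their controls, with log2 fold changes of 2.27 ± 0.252, 1.48 ± 0.251 and 2.82 ± 0.256.

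Fabp6, the cytosolic carrier, moved in both directions by genotype. The D387A-set controls held 82.4, 74.6 and 66.4 RPKM, and Casp8 1xDA/1xDA Cflar-/- Mlkl-/- held 7.48, 6.81 and 9.18, a log2 fold change of -3.24 ± 0.838. The opposite extreme was Casp8 1xDA/1xDA Cflar-/- Mlkl-/- Casp1-/- Ifnar1-/-, at 460, 686 and 573 RPKM, the highest level of the gene in this set (log2 fold change 2.94 ± 0.737). Casp8 1xDA/1xDA alone held 180, 117 and 217 RPKM, above every control, but was not called (1.20 ± 0.706, adjusted p = 0.966 by edgeR's quasi-likelihood test). Fitted with these 2 groups alone, that same difference was called (1.18, adjusted p = 0.0405). With Casp1-/- the embryos held 6.07, 4.03 and 130 RPKM, so that 2 embryos were below every Casp1-intact mutant and the third was above the controls. The log2 fold change of that group was -0.68 with the third embryo and -3.88 without it, and only the latter was called. With Casp1-/- Fadd-/- the values were 129, 131 and 183 RPKM.

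The same gene was at 16.2, 30.8 and 40.1 RPKM in the C362A-set controls, at 187, 132 and 160 in Casp8 C362A/C362A Mlkl-/-, and at 409, 223 and 284 with Casp1-/-. Both mutant groups lay clear above the controls (log2 fold changes 2.46 ± 0.283 and 3.40 ± 0.293). Loss of Cflar placed it below them, at 14.3, 14.7 and 10.9 RPKM (-1.12 ± 0.293), and without the third control that difference was -0.80, under the fold threshold. Set directly against Casp8 C362A/C362A Mlkl-/-, that was a log2 fold change of -3.58 ± 0.302. The ratio of Fabp6 to Slc10a2 levels was 49.6 ± 2.5 (SD, n = 3) in D387A-set controls, 1.07 ± 0.603 in Casp8 1xDA/1xDA Cflar-/- Mlkl-/-, 102 ± 14.1 with Casp1-/- Ifnar1-/-, and 1.4 ± 0.0321 in Casp8 C362A/C362A Cflar-/- Mlkl-/- against 21 ± 5.59 in its controls.

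The subunits of the basolateral exporter are given side by side. Slc51a was at 246, 218 and 210 RPKM in D387A-set controls and at 53.2, 43.7 and 35.8 in Casp8 1xDA/1xDA Cflar-/- Mlkl-/-. Slc51b was at 95.4, 90.8 and 96.1 RPKM in the same controls and at 53.3, 36.3 and 39.8 in the mutants. Neither overlapped, with log2 fold changes of -2.34 ± 0.157 for Slc51a and -1.13 ± 0.352 for Slc51b. Casp8 1xDA/1xDA alone held 274, 276 and 292 RPKM of Slc51a and 104, 110 and 109 of Slc51b, above every control but not called. Casp1-/- Fadd-/- embryos held 236, 233 and 219 RPKM of Slc51a and 152, 150 and 127 of Slc51b, also not called. With Casp1-/- Ifnar1-/-, Slc51a was at 139, 182 and 182 RPKM, below every control, and Slc51b was at 162, 243 and 227, above every control (log2 fold change 1.16 ± 0.345, called). With Casp1-/-, Slc51b was at 38, 41.8 and 147 RPKM and Slc51a at 98.2, 117 and 149. The third embryo was again the one above the controls for Slc51b. Against controls, Slc51b was at -0.32 with that embryo and -1.24 without it, and Slc51a at -0.89 and -1.06, and only the values without it were called. Slc51b in the C362A set was at 59, 92.4 and 108 RPKM in controls, 120, 148 and 146 in Casp8 C362A/C362A Mlkl-/-, 274, 311 and 265 with Casp1-/-, and 83.7, 70.1 and 66.8 with Cflar-/-. Only the Casp1-/- group was called (1.71 ± 0.183), and the Cflar-/- group was within the range of the controls (-0.24, adjusted p = 0.29 by edgeR's quasi-likelihood test). Slc51a was at 152, 199 and 198 RPKM in those controls, at 110, 77.3 and 103 in Casp8 C362A/C362A Mlkl-/-, at 227, 238 and 253 with Casp1-/-, and at 62.2, 46.7 and 48.4 with Cflar-/-, where it was called lower (-1.80 ± 0.164).

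The level of Slc51a over that of Slc51b was 2.39 ± 0.196 (SD, n = 3) in D387A-set controls, and Casp8 1xDA/1xDA alone had 2.6 ± 0.0934. It was 1.04 ± 0.156 in Casp8 1xDA/1xDA Cflar-/- Mlkl-/-, 2.59, 2.8 and 1.01 in the 3 embryos with Casp1-/-, 0.804 ± 0.0561 with Casp1-/- Ifnar1-/- and 1.61 ± 0.0976 with Casp1-/- Fadd-/-. In the C362A set it was 2.19 ± 0.377 in controls and between 0.712 and 0.85 on average in the 3 mutant groups. The third Casp1-/- embryo thus had a ratio near that of Casp8 1xDA/1xDA Cflar-/- Mlkl-/-, and its mates lay above the range of the controls (2.19 to 2.58). The ratios are a description and were not tested. Slc51a and Pcyt1a share 567 bases on opposite strands, and Slc51b and Rasl12 share 2140, so without knowing how strand was counted some reads of each pair cannot be assigned with certainty. Pcyt1a itself was at 106 to 388 CPM and Rasl12 at 2.91 to 14.4 in the intestines.

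**Figure D3:**
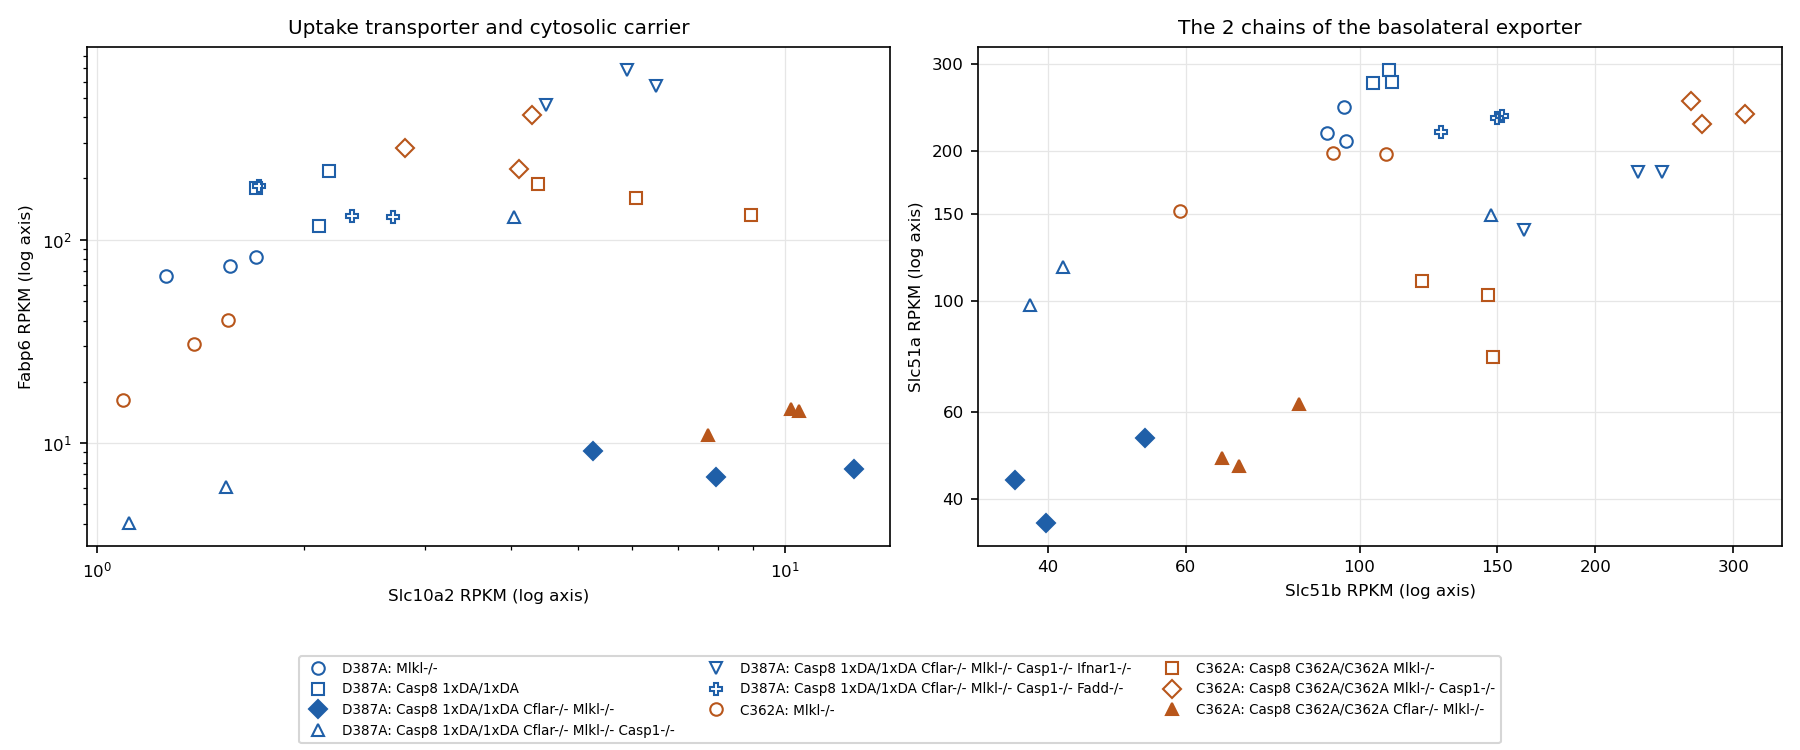
Fabp6 over Slc10a2 on the left and Slc51a over Slc51b on the right, in RPKM on log axes, with 1 point per embryo, blue for the D387A set and orange for the C362A set, and a marker for each genotype. The filled markers, the Cflar-/- Mlkl-/- compound mutants with Casp1 intact, lie at high Slc10a2 with low Fabp6 and at the lowest Slc51a.

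Nr1h4, which encodes the receptor FXR, was called lower in 3 mutant groups, by amounts that differed between genotypes. It was at 99.2, 91.4 and 86.3 RPKM in D387A-set controls, at 103, 92.8 and 98.6 with Casp8 1xDA/1xDA alone, and Casp8 1xDA/1xDA Cflar-/- Mlkl-/- held 34, 28 and 25.2 RPKM (log2 fold change -1.67 ± 0.119). The values with Casp1-/- were 58.4, 65.5 and 47, with Casp1-/- Ifnar1-/- 45.9, 49.8 and 48, and with Casp1-/- Fadd-/- 82.8, 71.8 and 76.7. All 3 of those groups lay below every control and above every Casp1-intact compound mutant, though none passed the fold threshold. Within the C362A set it was at 109, 115 and 108 RPKM in controls, 53, 49.8 and 51.4 in Casp8 C362A/C362A Mlkl-/-, 99.3, 102 and 95.4 with Casp1-/- and 43.1, 40.4 and 39.2 with Cflar-/-. The 4 ranges were separate, and the groups without Casp1-/- were called lower (-1.11 ± 0.0959 and -1.44 ± 0.0967).

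Nr0b2, the corepressor SHP, was close to 0 in the compound mutants with Casp1 intact. Its level was 9.13, 9 and 10 RPKM in D387A-set controls and 0.0763, 0.0395 and 0 in Casp8 1xDA/1xDA Cflar-/- Mlkl-/-, from 2, 1 and 0 reads. Summed over embryos, controls had 626 reads and mutants 3, and on equal library size controls were 250 times higher (95% exact Clopper-Pearson interval 85.2 to 1216, counting error only). With so few reads the fitted log2 fold change, -7.79, ran from -8.63 without the first mutant embryo to -7.21 without the third. With Casp1-/- it was at 2.21, 3.02 and 2.53 RPKM, with Casp1-/- Ifnar1-/- at 1.39, 1.18 and 0.896, and with Casp1-/- Fadd-/- at 3.25, 4 and 5.94. Each of these lay between controls and Casp1-intact compound mutants with no overlap, and all 3 were called lower than controls (log2 fold changes -1.86 ± 0.224, -3.02 ± 0.244 and -1.09 ± 0.214, the last at -0.92 without the first Fadd-/- embryo). Among C362A-set embryos it was at 6.21, 12 and 10.4 RPKM in controls, 3.3, 3.23 and 3.07 in Casp8 C362A/C362A Mlkl-/- Casp1-/-, 0.415, 0.157 and 0.351 with Casp1 intact and 0.143, 0.0653 and 0.0646 with Cflar-/-. Again the 4 ranges were separate, and controls were 31 times higher than Casp8 C362A/C362A Mlkl-/- (21.5 to 46.6) and 107 times higher than the Cflar-/- mutants (54 to 248).

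Fgf15, the enterokine, varied most among embryos of 1 genotype. It was at 6.46, 15.5 and 3.48 RPKM in D387A-set controls and at 19.9, 8.95 and 15.5 with Casp8 1xDA/1xDA alone. Casp8 1xDA/1xDA Cflar-/- Mlkl-/- held 0.215, 0.0988 and 0.221 RPKM from 9, 4 and 10 reads, below every control, and controls were 46.5 times higher (30.8 to 73.8 by counting error). More than any other embryo, the second control carried that value, with 535 of the 893 control reads, and the log2 fold change was -5.53 with it and -4.76 without it. The Casp1-/- embryos held 12, 1 and 396 reads, which is 0.301, 0.0248 and 10.4 RPKM. The third embryo was within the range of the controls and its mates were among the lowest of the set. The group's log2 fold change against controls was -1.25 with that embryo, not called, and -5.68 without it, called. With Casp1-/- Ifnar1-/- the values were 10.1, 10.5 and 8.76 RPKM and with Casp1-/- Fadd-/- 6.48, 19 and 3.2, the former inside the control range and the latter extending past both of its ends. C362A-set controls held 1.2, 4.64 and 1.95 RPKM against 2.32, 0.767 and 3.28 in Casp8 C362A/C362A Mlkl-/- (log2 fold change -0.30 ± 0.464), 12.5, 9.4 and 9.01 with Casp1-/- (1.98 ± 0.456, called, and 2.69 without the second control) and 0, 0.0204 and 0.0202 with Cflar-/-. The last group had 2 reads in all against 384 in controls, a ratio of 192 (52.8 to 1590). The log2 fold change there was -7.30, and -6.55 without the second control.

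Abcb11, the bile salt export pump, showed the widest range of the 9 genes. It was at 23.6, 21.1 and 24.3 RPKM in D387A-set controls, at 29.9, 21.7 and 27.7 with Casp8 1xDA/1xDA alone, while Casp8 1xDA/1xDA Cflar-/- Mlkl-/- held 0, 0.0174 and 0.0311. Those mutants had 6 reads in all against 6969 in controls, so controls were 1392 times higher (639 to 3794), and the fitted log2 fold change, -10.35, ran from -11.22 without the third mutant embryo to -9.81 without the first. With Casp1-/- the values were 6.1, 8.57 and 1.05 RPKM, with Casp1-/- Ifnar1-/- 0.462, 0.386 and 0.394, and with Casp1-/- Fadd-/- 2.52, 2.91 and 4.4. All were below every control, and the third Casp1-/- embryo was here the lowest of its group. Their log2 fold changes against controls were -2.13 ± 0.415, -5.79 ± 0.531 and -2.81 ± 0.43, all called. In the C362A set it was at 23.6, 34.2 and 30.9 RPKM in controls, 4.41, 2.4 and 2.37 in Casp8 C362A/C362A Mlkl-/- Casp1-/-, 0.155, 0.132 and 0.14 with Casp1 intact and 0.0236, 0.0718 and 0.0355 with Cflar-/-. Controls were 209 times higher than Casp8 C362A/C362A Mlkl-/- (162 to 273) and 671 times higher than the Cflar-/- mutants (424 to 1132).

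Abcc2, the conjugate pump, varied over a smaller range than Abcb11 and Nr0b2. It was at 69.7, 60.4 and 59.7 RPKM in D387A-set controls, 6.9, 5.54 and 4.23 in Casp8 1xDA/1xDA Cflar-/- Mlkl-/- (log2 fold change -3.51 ± 0.192), 36.4, 41.1 and 32.1 with Casp1-/-, 34.8, 29.2 and 27.2 with Casp1-/- Ifnar1-/- and 48.8, 50.2 and 71.5 with Casp1-/- Fadd-/-. Only the last of these reached the controls. The Ifnar1-/- group was called lower, at -1.06, and lost the call without the first control (-0.99), and likewise without the third embryo of the group. In the C362A set it was at 83.1, 96.6 and 101 RPKM in controls, 71.9, 59.8 and 61.3 with Casp1-/-, 29.7, 24.4 and 27.6 with Casp1 intact and 6.91, 6.79 and 12.3 with Cflar-/-. The last 2 groups were called lower (-1.78 ± 0.207 and -3.43 ± 0.222).

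Loss of Casp1 was tested directly. Between Casp8 1xDA/1xDA Cflar-/- Mlkl-/- embryos with and without Casp1, 7 of 9 genes were called (all genes 13.4%), 6 higher and Slc10a2 lower (-1.95 ± 0.366, and -2.69 without the third Casp1-/- embryo) in the Casp1-/- embryos. The log2 fold changes were 8.22 ± 0.855 for Abcb11 (9.09 without the third Casp1-intact embryo), 5.93 ± 0.461 for Nr0b2 (6.78 without the first), 2.72 ± 0.186 for Abcc2 and 1.46 ± 0.153 for Slc51a. Those of Fabp6 (2.56 ± 0.838) and Fgf15 (4.28 ± 1.4) rested on the third Casp1-/- embryo, since without it they were -0.64 and -0.14 and not called. Nr1h4, at 0.97 ± 0.117 with all embryos, was called at 1.09 without that one. Slc51b was at 0.81 with it and -0.11 without it, not called in either. In Casp8 C362A/C362A Mlkl-/- embryos, 6 of 9 genes were called between those with and without Casp1 (all genes 11.3%), all higher in Casp1-/-, by 4.42 ± 0.297 for Abcb11, 3.36 ± 0.337 for Nr0b2, 2.28 ± 0.463 for Fgf15, 1.31 ± 0.162 for Slc51a, 1.24 ± 0.204 for Abcc2 and 1.04 ± 0.18 for Slc51b. The call of Slc51b did not hold when the first embryo with Casp1 or the second with Casp1-/- was left out (0.95 in each). There Slc10a2 was at -0.79, Fabp6 at 0.94 and Nr1h4 at 0.94, under the fold threshold.

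Loss of Ifnar1 on top of Casp1 gave a mixed pattern, with 5 of 9 genes called (all genes 5.31%). Fabp6 (3.63 ± 0.763), Slc51b (1.48 ± 0.348) and Slc10a2 (1.34 ± 0.364) were higher in the Casp1-/- Ifnar1-/- embryos, and Abcb11 (-3.66 ± 0.521) and Nr0b2 (-1.16 ± 0.258) were lower. The contrast rests on the Casp1-/- group, and the call of Slc10a2 did not hold without its first (1.13, adjusted p = 0.0612) or second embryo (1.01, 0.0586). Without the third embryo of that group, 6 genes were called, Fabp6 at 6.82, Slc51b at 2.40, Slc10a2 at 2.08 and Fgf15 at 5.89, with Nr0b2 at -1.17 and Abcb11 at -4.14. In a fit of the 2 groups alone, 2 genes were called. Loss of Fadd on top of Casp1 gave 0 called genes by edgeR (all genes 3.44%), with 6 at an unadjusted p under 0.05 and 2 called by limma-voom. Without the third Casp1-/- embryo 5 were called: Fgf15 at 5.85, Fabp6 at 4.87, Slc51b at 1.84 and Slc51a at 1.09 were higher and Abcb11 at -1.16 was lower in Fadd-/-.

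Loss of Cflar in the C362A set, tested against Casp8 C362A/C362A Mlkl-/-, gave 5 called genes (all genes 6.06%), all lower. These were Fgf15 (-7.00 ± 0.943), Fabp6 (-3.58 ± 0.302), Nr0b2 (-1.73 ± 0.549), Abcb11 (-1.67 ± 0.517) and Abcc2 (-1.65 ± 0.207). The calls of Nr0b2 and Abcb11 did not hold by limma-voom (adjusted p = 0.137 and 0.0835) or with the replicate number as a block (0.0623 and 0.0511), and leaving out single libraries took their adjusted p by edgeR up to 0.136 and 0.128. Slc10a2 was at 0.55 ± 0.232, not called.

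Whether mutants of the 2 sets differed from their own controls to a different degree was tested as an interaction over all 30 intestines. Against Casp8 C362A/C362A Mlkl-/-, the change in Casp8 1xDA/1xDA Cflar-/- Mlkl-/- was lower for 6 of 9 genes (7.46% of 19643 genes called), from -1.42 ± 0.226 for Slc51a to -5.70 ± 0.958 for Fabp6. Against Casp8 C362A/C362A Cflar-/- Mlkl-/-, 0 of 9 were called by edgeR (all genes 0.0764%), with 2 at an unadjusted p under 0.05. The differences in that second comparison ran from -2.12 ± 0.971 for Fabp6 to 1.74 ± 3.2 for Fgf15, so their errors leave room for differences of more than 2-fold in several genes. The effect of Casp1 loss was greater in the D387A set for 3 genes (all genes 5.73%), Abcb11 by 3.83 ± 1.28, Nr0b2 by 2.60 ± 0.756 and Abcc2 by 1.50 ± 0.277, of which Abcc2 was the 1 called by limma-voom. Without the third Casp1-/- embryo, 6 were called. These 3 were again higher (4.32, 2.63 and 1.59), and the 3 added genes went the other way, Slc10a2 at -1.86, Fabp6 at -1.54 and Slc51b at -1.12. With that embryo those were at -1.13, 1.64 and -0.21, and Fgf15, not called in either case, was at 2.02 with it and -2.40 without it.

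Other genes of the pathway were counted over lists. Their counts stand beside the shares of all tested genes that were called, which were 12.8% lower and 9.4% higher in Casp8 1xDA/1xDA Cflar-/- Mlkl-/-. Among C362A-set groups the shares were 7.55% lower and 10.4% higher in Casp8 C362A/C362A Mlkl-/-, 11.2% lower and 13.4% higher with Cflar-/-, and 3.73% lower and 6.79% higher with Casp1-/-. Of the bile acid synthesis and conjugation list, 11 of 13 genes passed the filter in the D387A set, and in Casp8 1xDA/1xDA Cflar-/- Mlkl-/- 9 were called lower and 0 higher, with a median log2 fold change of -1.76. The largest falls were those of Slc27a2 (-4.60) and Slc27a5 (-3.72), which activate bile acids or fatty acids with coenzyme A, and of the reductase Akr1d1 (-3.32). In the C362A set, 5 of 10 tested were lower in Casp8 C362A/C362A Mlkl-/- and 6 with Cflar-/-, against 2 with Casp1-/-, and none was higher. Cyp7a1, the rate-limiting enzyme of hepatic bile acid synthesis, had no read in 7 of the 10 intestine groups and reached at most 0.0881 RPKM in the others. Of 12 further bile acid and bile lipid transporters, 7 were tested. Casp8 1xDA/1xDA Cflar-/- Mlkl-/- had 2 higher, the basolateral pumps Abcc4 (1.17) and Abcc3 (1.06), and 2 lower, the sterol exporter subunits Abcg8 (-3.86) and Abcg5 (-2.88). Abcg8 and Abcg5 were also called lower in both C362A groups with Casp1 intact.

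Among 13 receptors and partners, Klb had the largest fall. It encodes beta-Klotho, the coreceptor for FGF15, and was at 3.66, 3.49 and 2.88 RPKM in D387A-set controls and 0.159, 0.114 and 0.0565 in Casp8 1xDA/1xDA Cflar-/- Mlkl-/- (log2 fold change -4.93). Nr1i3 (CAR, -2.63) and Nr1i2 (PXR, -1.14) were also called lower there. Gpbar1, the membrane bile acid receptor TGR5 (1.74), and Fgfr4 (1.10) were called higher. Klb and Nr1i3 were called lower, and Gpbar1 higher, in Casp8 C362A/C362A Mlkl-/- and in Casp8 C362A/C362A Cflar-/- Mlkl-/-. Of 14 transcription factors of enterocyte genes, 6 were lower and none higher in Casp8 1xDA/1xDA Cflar-/- Mlkl-/-, with Maf (-2.32), Ppara (-1.81) and Prdm1 (-1.68) lowest. Of 4 other genes described as FXR-responsive in ileum, Nos2 rose by 7.57 and Car12 by 1.30 on the log2 scale, and Ang (-1.69) and Il18 (-1.05) fell. Nos2, the inducible nitric oxide synthase, was called higher than controls in every mutant group but Casp8 1xDA/1xDA.

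**Figure D4:**
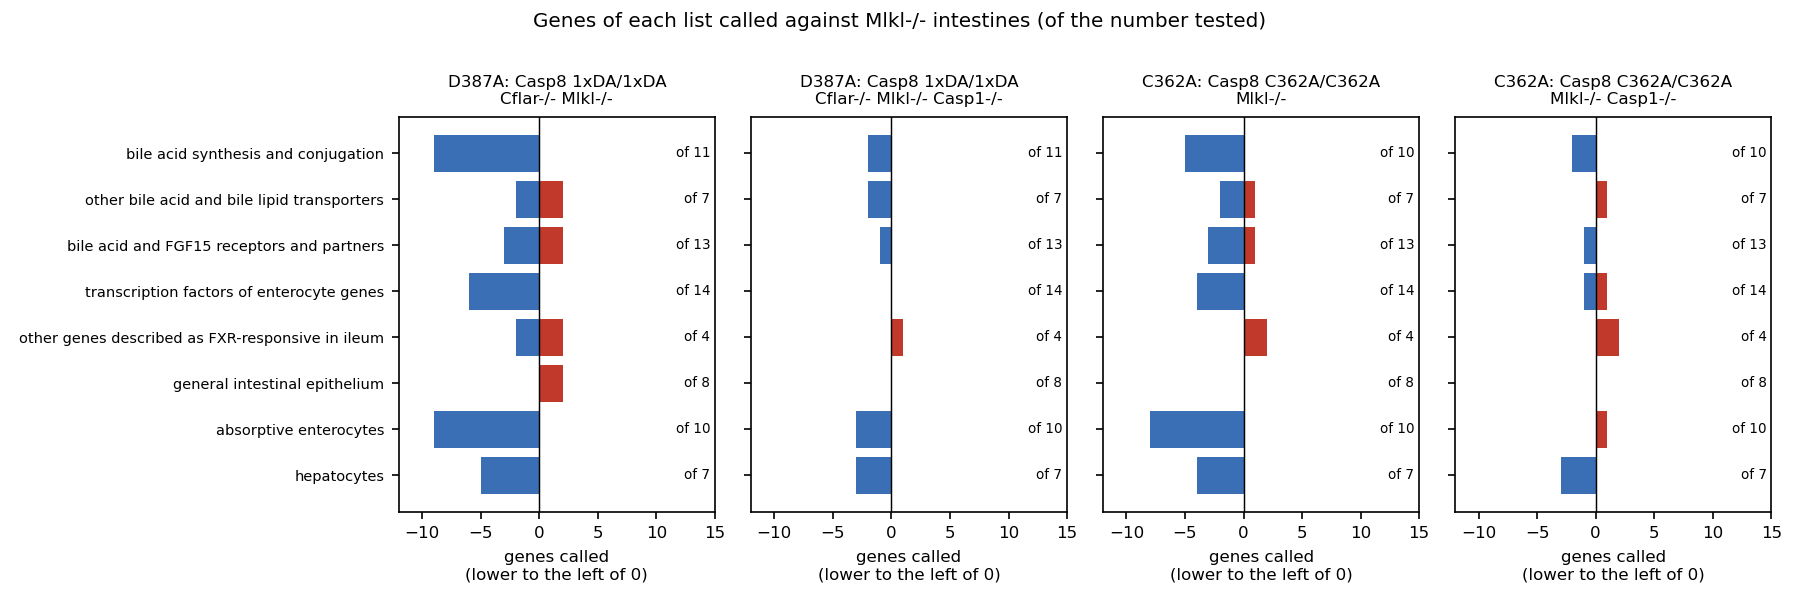
Number of genes called higher and called lower in each pathway list and in the epithelial, enterocyte and hepatocyte marker lists, for 4 mutant genotypes against the Mlkl-/- controls of their set (bars to the left of 0 are genes called lower, bars to the right genes called higher). The enterocyte list had 9 of 10 genes lower in Casp8 1xDA/1xDA Cflar-/- Mlkl-/-, while the general epithelial list had 0 lower.

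Markers of absorptive enterocytes were counted in the same comparisons, and their counts stand beside the same shares of all genes. The enterocyte list (10 genes, among them Lct, Alpi and Apob) had 9 genes called lower in Casp8 1xDA/1xDA Cflar-/- Mlkl-/-, with a median of -3.96 and a summed level of 1884 to 3533 CPM against 41146 to 46599 in controls. It had 8 lower in Casp8 C362A/C362A Mlkl-/- (15765 to 20001 CPM against 37128 to 55585) and 8 lower with Cflar-/- (3001 to 8611). With Casp1-/- in that set it had 0 lower, at 48420 to 59277 CPM. In the D387A set it had 3 lower with Casp1-/- (21655 to 28480 CPM), 3 with Casp1-/- Ifnar1-/- (23990 to 33265) and 0 with Casp1-/- Fadd-/- (43604 to 46340). The general epithelial list had 0 of 8 genes lower in any of these comparisons and was at 5319 to 5856 CPM in Casp8 1xDA/1xDA Cflar-/- Mlkl-/-. In bulk tissue, fewer enterocytes and less RNA per enterocyte cannot be told apart. Fabp6 in the Casp1-/- Ifnar1-/- embryos was above its controls while the enterocyte list was below its own, and Slc10a2 was above controls where that list was lowest. In Casp8 C362A/C362A Mlkl-/-, where the list was lower, Fabp6 (2.46) and Slc10a2 (2.27) were called higher and 4 members lower. With Casp1-/- Fadd-/- the list had 0 lower, while Abcb11 (-2.81) and Nr0b2 (-1.09) were called lower. The members thus moved with the list in part only.

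Regional lists gave further context. Distal vacuolated enterocyte markers (5 genes) were all called lower in both Cflar-/- Mlkl-/- compound mutants with Casp1 intact. Of 6 proximal markers, 4 were lower in each, and of 4 colon markers 1 was higher (Car1) and 1 lower (Aqp8) in each. The sources do not give which stretch of the gut was taken from each embryo beyond the intestine, so the segment content of the libraries cannot be told apart from expression within a segment. Among markers of other tissues in Casp8 1xDA/1xDA Cflar-/- Mlkl-/-, 0 of 5 smooth muscle, 0 of 5 fibroblast and 0 of 4 erythroid genes were called, 1 macrophage gene was higher and 1 lower, 2 of 5 tested pancreatic genes were lower and all 5 tested stomach genes were lower. The stomach list rested on the third control, at 132 CPM summed against 1.37 to 2.02 in its mates.

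Abcb11, Nr0b2 and the synthesis genes are also liver genes, so the hepatocyte list is given beside them. Casp8 1xDA/1xDA Cflar-/- Mlkl-/- had 5 of 7 tested genes called lower, and the summed level of all 10 was 13.5 to 60.8 CPM against 216 to 605 in controls. Ttr, which encodes transthyretin, was at 177, 141 and 152 RPKM in controls and 13.2, 7.88 and 9.48 in those mutants. Alb, an abundant liver transcript, was at 3.05, 135 and 1.62 RPKM in the 3 D387A-set controls, while Abcb11 was at 23.6, 21.1 and 24.3 in the same embryos. Abcb11 thus varied little among controls that differed widely in Alb, and what part liver RNA had in these genes was not tested. With Casp1-/- Fadd-/- the list was at 211 to 275 CPM with 0 genes called, while Abcb11 was called at -2.81 and Nr0b2 at -1.09. With Casp8 C362A/C362A Mlkl-/- Casp1-/- it was at 282 to 431 CPM against 214 to 330 in controls, with 3 genes called lower (Alb, Ahsg and F9) and Ttr at 204, 323 and 318 RPKM against 125, 177 and 166, and Abcb11 was called at -3.27 and Nr0b2 at -1.57. The list was at 91.9 to 117 CPM with Casp1-/-, 51.7 to 57.7 with Casp1-/- Ifnar1-/-, 130 to 195 in Casp8 C362A/C362A Mlkl-/- and 14.5 to 145 in Casp8 C362A/C362A Cflar-/- Mlkl-/-. Slc10a1, the hepatocyte uptake transporter, was at 0, 0.382 and 0 RPKM in the D387A-set controls.

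The MEFs held almost no reads of the chain. Of the 9 genes, 0 passed the filter on low counts, and Slc51b and Fabp6 had no read in any of the 6 libraries. Nr1h4 had the most, with 10, 18 and 5 reads in Mlkl-/- and 18, 1 and 4 in Casp8 1xDA/1xDA Cflar-/- Mlkl-/- cultures. No difference was detectable at this depth, and 0.0711% of the 15465 tested genes were called between these cultures, 11 genes, or 19 with the replicate number as a block. The enterocyte list was at 40.5 to 63.5 CPM with 6 of 10 genes at 0, and the fibroblast list at 21872 to 25041 CPM.

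Genes whose levels moved most like each member were ranked by Pearson's r of log2(CPM + 0.5) over the 18 D387A-set libraries, which share 6 genotypes, with r over the 12 C362A-set libraries beside it, as a description. Abcb11 was closest to Slc47a1, an organic cation exporter (1.00 and 0.98), and Nr0b2 to Pck1, the gluconeogenic enzyme (0.99 and 0.98). Nr1h4 was closest to Tango2 (0.99 and 0.97), Abcc2 to Tfg (0.99 and 0.96) and Slc51a to Esrra, a nuclear receptor of mitochondrial genes (0.99 and 0.96). Slc51b was closest to Srxn1 (0.97 and 0.86), then to Ggh (0.96 and 0.24). Fabp6 was closest to Osgin1 (0.96 and 0.90), then to Nat8f5 (0.95 and 0.53) and Srxn1 (0.94 and 0.92). Srxn1 encodes sulfiredoxin, and both it and Osgin1 are known as oxidative stress response genes, a shared trait that was not tested here. Fgf15 was closest to Lgmn (0.95 and 0.83) and Slc10a2 to the epithelial keratin Krt8 (0.96 and 0.72). Between members, r was 0.97 and 0.99 for Nr0b2 with Abcb11, 0.96 and 0.92 for Slc51b with Fabp6 and -0.91 and -0.94 for Slc10a2 with Abcb11. For Slc10a2 with Fabp6 it was -0.00 and -0.03.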

How the data were processed

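RNA from 30 E18.5 intestines and 6 MEF cultures was sequenced as single-end libraries. Per the labels and the study's methods, the authors aligned reads to GRCm38/mm10 with GSNAP, kept uniquely mapped reads and deposited, for each library, a raw count, a gene width and an RPKM value per Ensembl gene. The counting program, its annotation and its use of strand are not given in the sources used here, and the labels and the methods name different library kits, 1 of them stranded. The deposited counts and widths were used. The deposited RPKM values use a larger library total, were not used for any result, and the RPKM levels given were recomputed on TMM-scaled library sizes of each set. Gene symbols and coordinates came from GENCODE M21 (52403 of 52636 IDs found).

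The 9 genes, the pathway lists and the marker lists were chosen with earlier results of these data known. Gata4, Prdm1, Cyp7a1, Cyp8b1, Slc27a5 and Slc10a1 stand in more than 1 list. The test was that of edgeR 4.0.16 under R 4.3.3 (filterByExpr with a minimum count of 10 and total of 15, TMM, prior count 0.125, glmQLFit and glmQLFTest), in 1 fit per set over all its groups (18360, 19408 and 15465 genes) and in 1 fit of all intestines for the interactions (19643 genes). Calls needed an adjusted p under 0.05 and a log2 fold change beyond 1. On counts simulated with known changes, 4-fold changes were recovered in 100% of genes for the comparison of Casp8 1xDA/1xDA Cflar-/- Mlkl-/- with Mlkl-/- (18081 genes in that step). These changes were placed only on genes above a read minimum and with a single spread for all genes. The recovery therefore checks the fit and does not give the sensitivity for sparse or variable genes such as Fgf15, Nr0b2 and Abcb11. All 9 genes are given by name. From each list the text names the called genes with the 3 largest rises and falls in the comparison described, and for each member the most similar non-members by r with a mean of at least 1 CPM. Library pairs of a group differed beyond sampling noise (chi-square over degrees of freedom 5.01 to 70.8 over 36 pairs), so none was counted as a repeat. Replicates are separate embryos or cultures of 1 genotype. Counting intervals cover counting error only. Alternatives were relative log expression size factors, DESeq2 1.42.0, limma-voom (limma 3.58.1), no filter, a mean of at least 50 reads, the replicate number as a block, a fit of only the groups compared, raw library totals and leaving out each library. Replicate numbers were checked as pairs. In 2 of 22 pairs of groups, D387A-set Mlkl-/- with Casp8 1xDA/1xDA and the MEF groups, all 3 same-numbered correlations were over 0.1. These correlations do not establish that the numbers pair samples, and the fits as reported used no pairing. The block was fitted as an alternative for every comparison. Reads on genes made up 75.64 to 88.6% of the library total behind the deposited RPKM.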

Additional observations from a re-analysis of the deposited data

Results flagged for a closer look

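For 6 genes the change from the Mlkl-/- controls of the set differed between Casp8 1xDA/1xDA Cflar-/- Mlkl-/- and, in the other set, Casp8 C362A/C362A Mlkl-/- by the interaction test (the quasi-likelihood test of edgeR, adjusted over all genes by the Benjamini-Hochberg method). In each, the D387A-set change was the lower one. The difference in log2 fold change was -5.70 ± 0.958 (SE) for Fabp6 (adjusted p = 1.62e-04), which was below its controls in all 3 embryos of the first genotype and above them in all 3 of the second. It was -5.22 ± 1.49 for Fgf15 (adjusted p = 0.0155), -2.86 ± 0.739 for Nr0b2 (0.00781), -1.80 ± 0.437 for Slc51b (0.00504), -1.72 ± 0.277 for Abcc2 (9.98e-05) and -1.42 ± 0.226 for Slc51a (8.57e-05). By limma-voom that of Fgf15 was -4.96 with an adjusted p of 0.0572, and without the second D387A-set control it was -4.46 with 0.0503. That of Nr0b2 ran from -3.73 without the first Casp1-intact D387A-set mutant to -2.29 without the third, where its adjusted p was 0.0398. The enterocyte marker list was at 1884 to 3533 CPM in the first genotype against 41146 to 46599 in its controls. In the second it was at 15765 to 20001 against 37128 to 55585 in its own. The list was thus below its controls in both, while Fabp6 and Slc51b were above theirs in the second. Its part in these differences was not tested. Cflar was deleted in the first genotype and not in the second, and set, Casp8 allele and Cflar cannot be told apart in this comparison. With Casp8 C362A/C362A Cflar-/- Mlkl-/- as the second genotype, so that both lacked Cflar, 0 of 9 genes were called by edgeR, with 2 at an unadjusted p under 0.05.

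For 3 genes the effect of Casp1 loss was larger in the D387A set than in Casp8 C362A/C362A Mlkl-/-. The difference was 3.83 ± 1.28 on the log2 scale for Abcb11 (adjusted p = 0.0402 by edgeR's quasi-likelihood test), 2.60 ± 0.756 for Nr0b2 (0.0196) and 1.50 ± 0.277 for Abcc2 (9.02e-04). In both sets all 3 genes were higher in every Casp1-/- embryo of the comparison than in every embryo of the otherwise same genotype with Casp1. The D387A-set mutants of this comparison lack Cflar and those of the C362A set do not, and the part of that allele was not tested. Abcb11 and Nr0b2 start there from 6 and 3 reads over 3 embryos, so their fitted fold changes depend on the prior count. The difference of Abcb11 passed the threshold narrowly, and its adjusted p was 0.0648 when only the groups compared were fitted and 0.219 by limma-voom, and leaving out single libraries took it up to 0.0993. That of Nr0b2 was 0.085 by limma-voom and reached 0.0786 on leaving out single libraries (the third embryo with Casp1 in the D387A set). Over such omissions the differences ran from 3.29 to 4.71 for Abcb11 and from 2.03 to 3.47 for Nr0b2.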

How the results depend on the processing

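Of the counts of called genes, 222 alternative values lay within 1.5 times the reported count and 16 did not. Of the alternative values of called fold changes, 921 kept direction and call, 52 lost the call and 2 changed sign. Fitting only the groups compared gave 1 called gene for Casp8 1xDA/1xDA (Fabp6), 1 with Casp1-/- (Nr0b2) and 2 for the loss of Ifnar1. limma-voom gave 2 for the loss of Fadd, 3 for the loss of Cflar in the C362A set and 1 for the interaction of Casp1 loss, where the value of Fgf15 reversed to -1.07. No filter gave 1 for the loss of Fadd. With the replicate number as a block, the loss of Cflar in the C362A set gave 3 called genes, Nr0b2 at -1.74 (adjusted p = 0.0623) and Abcb11 at -1.66 (0.0511) dropping out, and in the interaction of Casp1 loss Abcb11 was at 3.80 (0.0616). The block changed no other call. Same-number r ran from -0.49 to 0.35 over all pairs of groups. It was over 0.1 for every number for Casp8 1xDA/1xDA with its controls and for the MEFs, which does not establish pairing. In those comparisons the block gave 0 called genes of the 9 as without it. The cause of these shifts was not tested.

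Leaving out each library in turn, counts ran from 2 to 6 with Casp1-/-, from 1 to 2 with Casp1-/- Fadd-/-, from 0 to 5 for the loss of Fadd, from 3 to 6 for the loss of Cflar and from 1 to 6 for the interaction of Casp1 loss. The highest counts with Casp1-/-, for the loss of Fadd and for the interaction came without the third Casp1-/- embryo. The loss of Cflar gave 3 without the third Casp8 C362A/C362A Mlkl-/- or the third Cflar-/- embryo. The interaction gave 1 without the second Casp8 1xDA/1xDA Cflar-/- Mlkl-/- or the first Casp8 C362A/C362A Mlkl-/- embryo. Log2 fold changes that changed sign ran from -1.24 to 0.01 (Slc51b) and -0.18 to 0.89 (Slc10a2) with Casp1-/-, from -0.17 to 0.97 (Fgf15) with Casp1-/- Ifnar1-/-, and from -0.02 to 0.09 (Slc51a) and -0.81 to 0.94 (Fgf15) with Casp1-/- Fadd-/-. For the loss of Casp1 in the D387A set they ran from -0.11 to 1.13 (Slc51b), -0.64 to 3.11 (Fabp6) and -0.14 to 4.87 (Fgf15), for the loss of Fadd from -0.31 to 0.76 (Slc10a2), and for Casp8 C362A/C362A Mlkl-/- from -0.76 to 0.42 (Fgf15). In the interactions they ran from -0.14 to 0.56 (Slc10a2) against Casp8 C362A/C362A Mlkl-/-, from -0.26 to 0.26 (Abcc2) against Casp8 C362A/C362A Cflar-/- Mlkl-/-, and for the loss of Casp1 from -0.06 to 0.18 (Nr1h4), -1.12 to 0.11 (Slc51b), -1.54 to 2.19 (Fabp6) and -2.40 to 2.60 (Fgf15).

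Over all genes, calls differed most for Casp8 1xDA/1xDA (1 as reported, 3 by DESeq2, 14 with no filter and 7 with only those groups), the MEFs (11, against 36, 45 and 19 by DESeq2, no filter and the block) and the interaction of both Cflar-/- mutants (15, against 137, 7, 123 and 3 by DESeq2, limma-voom, no filter and only those groups). A mean of at least 50 reads gave 524 of 796 calls with Casp1-/-, 1454 of 2278 with Casp1-/- Ifnar1-/-, 1581 of 2459 for the loss of Casp1 and 573 of 975 for the loss of Ifnar1. Only the groups compared gave 456, 411 and 322 (reported as 631) with Casp1-/- and for the losses of Ifnar1 and Fadd. With raw library totals, 76 group means of the 9 genes moved by less than 1 SD and 14 by more. Depth limits Nr0b2, Abcb11 and Fgf15 in the Cflar-/- compound mutants with Casp1 intact, where 0 to 10 reads stand behind a library's value.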
